A study of Mus musculus with 24 samples.

Results

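Pitx1, Msx1, Msx2, Barx1, Lhx6, Lhx8, Pax9 and Isl1 are 8 transcription factor genes that mark where teeth form in the embryonic jaws, and their levels were read on 24 Affymetrix arrays of mouse jaw tissue. They were chosen by symbol, each read by the brightest of the probe sets annotated to it alone, and they are 8 of 18194 genes with such a probe set and of 13850 genes tested. The arrays came from C57B6 embryos at embryonic day 13.5. Wnt1cre;Tgfbr2fl/+ mice had been crossed with Tgfbr2fl/fl mice, so every embryo carries at least 1 floxed allele of Tgfbr2, the gene of the type II TGF-beta receptor. Mutants were picked by their cleft palate and calvarial defect, and controls were littermates, whose Cre status and other Tgfbr2 allele are not given. Wnt1-driven Cre acts in the neural crest, so the jaw mesenchyme of the mutants derives from recombined cells, while epithelium, muscle fibres and vessel endothelium do not. Each jaw was split into a distal (front) and a proximal (back) piece, which gives 8 groups of genotype, jaw and end with 3 arrays each. Nothing in the labels ties an array to a single animal, so the p-values below reflect variation among these samples alone, part of which may be technical.

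Teeth arise where the oral epithelium signals to neural crest mesenchyme beneath it, and the mesenchyme answers with combinations of homeobox genes that differ between the front of the jaw, where mouse incisors form, and the back, where molars form. Bone morphogenetic protein from the distal epithelium is known to favour Msx1 and Msx2 and to restrict Barx1, whereas fibroblast growth factor from the proximal epithelium favours Barx1, Lhx6 and Lhx8. Homeobox proteins bind DNA through a homeodomain, LIM-homeobox proteins such as Lhx6, Lhx8 and Isl1 add protein-binding LIM domains, and Pax9 binds through a paired domain.

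All 8 genes lay above the 40th percentile of their array on all 24 arrays. Values are log2 levels, and array medians ranged from 7.0 to 7.08. Hand2, which marks the mandible, was higher in the control mandible than in the control maxilla by 5.16 at the distal end and by 3.52 at the proximal end, as the jaw labels say. Other patterning genes read for this purpose were less clear. Hand1 was higher in the mandible by 0.46 distally, which passed, and by 0.15 proximally, which did not. Dlx5 and Dlx6 passed at neither end (-0.21 and -0.08 distally, -0.19 and -0.18 proximally). Tgfbr2 read 0.31 ± 0.05 (SE) higher in the mutants averaged over the 4 regions, but the place of its probe set relative to the deleted part is not given, so this does not check the deletion. Arrays of 1 genotype with the same replicate number, 4 each, form what is here called a set. Mutant sets 1 and 3 had a raised difference between the 3′ and 5′ Gapdh control probe sets (0.249 to 0.773 over their arrays, against -0.074 to 0.158 in controls), and mutant sets 2 and 3 read high for both Xist and Y-linked genes, which no control set did. Control distal maxilla replicate 3 stood apart for the genes described here: 7 of the 8 lay below both other arrays of the group, with a median of -0.96 below their mean. Over all tested genes it did not stand apart. The SD of its differences from those arrays was 0.21, against 0.21 for replicate 1 and 0.16 for replicate 2. In mutant distal maxilla replicate 1 cartilage and neuronal markers were high. Values without these arrays or their sets are given beside the results.

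The promoters of the 3 genes whose distal to proximal difference changed most between the jaws are shown first: Barx1, which was low at the front of the mandible, and Msx2 and Isl1, which ran opposite to it there. Each run is the 250 bases before the gene start from RefSeq (GRCm38.p6), 5′ to 3′ on the strand of the gene. Barx1 lies at chr13:48662786-48663035 on the plus strand, Msx2 at chr13:53472781-53473030 on the minus strand and Isl1 at chr13:116309689-116309938 on the minus strand. Capitals mark matches to TAATTA, a core bound by many homeodomains, to CAGAC, the SMAD box, or to GGCGCC, a GC-rich SMAD site, all searched on both strands.
Barx1: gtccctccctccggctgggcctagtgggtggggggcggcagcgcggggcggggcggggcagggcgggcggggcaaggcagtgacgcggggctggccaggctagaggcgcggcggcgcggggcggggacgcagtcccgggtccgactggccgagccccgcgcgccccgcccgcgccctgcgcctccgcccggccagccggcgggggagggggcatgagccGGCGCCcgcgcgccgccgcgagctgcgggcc
Msx2: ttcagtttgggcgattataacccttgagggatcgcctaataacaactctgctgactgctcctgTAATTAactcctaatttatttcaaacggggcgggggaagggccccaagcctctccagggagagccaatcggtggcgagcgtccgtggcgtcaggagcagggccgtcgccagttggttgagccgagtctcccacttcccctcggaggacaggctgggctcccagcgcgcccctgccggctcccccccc
Isl1: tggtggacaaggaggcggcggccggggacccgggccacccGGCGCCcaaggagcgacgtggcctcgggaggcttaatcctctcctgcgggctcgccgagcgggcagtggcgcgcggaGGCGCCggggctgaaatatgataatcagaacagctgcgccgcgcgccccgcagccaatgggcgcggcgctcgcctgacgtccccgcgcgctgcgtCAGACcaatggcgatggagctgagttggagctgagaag
The Msx2 window holds 1 TAATTA, which begins 187 bases before the start, and 4.84% of 32851 mouse promoter windows of this length hold one. The Isl1 window holds 1 CAGAC (42.2% of windows hold it) and 2 copies of GGCGCC (9.59% of windows), and the Barx1 window holds 1 GGCGCC, 31 bases before the start. No 2 matches overlap. Windows were found for 7 of the 8 genes, and Pitx1 was not matched. These matches describe the letters only.

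Among the 8 genes, each by its brightest probe set, Barx1 varied most between the 8 groups and Pax9 least. The highest and lowest group means differed by 3.46 (11-fold) for Barx1, 2.30 for Msx1, 2.04 for Msx2, 1.98 for Isl1, 1.98 for Lhx8, 1.89 for Pitx1, 1.09 for Lhx6 and 0.58 for Pax9. The other 2 Pax9 probe sets tested gave 1.38 and 0.85, and the other Lhx6 probe set 0.75. Ranked by group mean, the arrays of neighbouring groups overlapped in 6 of 7 pairs for 6 of the genes and in 7 of 7 pairs for Lhx6 and Pax9, so most neighbours in the order are not separated beyond their spread. The 1 break between neighbouring groups lies in a different place for most genes. For Barx1 it parts both distal mandible groups from the other 6, with no array crossing it. In the order of Pitx1 it lies between the lowest mandible mean and the highest maxilla mean, and in that of Msx2 below the distal mandible and proximal maxilla means, although arrays of groups further apart in these orders cross it. For Msx1 and Lhx8 it lies above the mutant proximal maxilla, the lowest mean of both, although for Lhx8 a control distal maxilla array (10.17) crosses it. For Isl1 it lies between the mutant and the control distal mandible, but only by 10.2401 against 10.24. A mutant proximal maxilla array (11.13) lies above it, although that group ranks lower. In that genotype comparison 18.3% of all genes tested did not overlap. These levels are of whole tissue pieces, in which fewer cells of a type and less RNA per cell cannot be told apart.

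**Figure D1:**
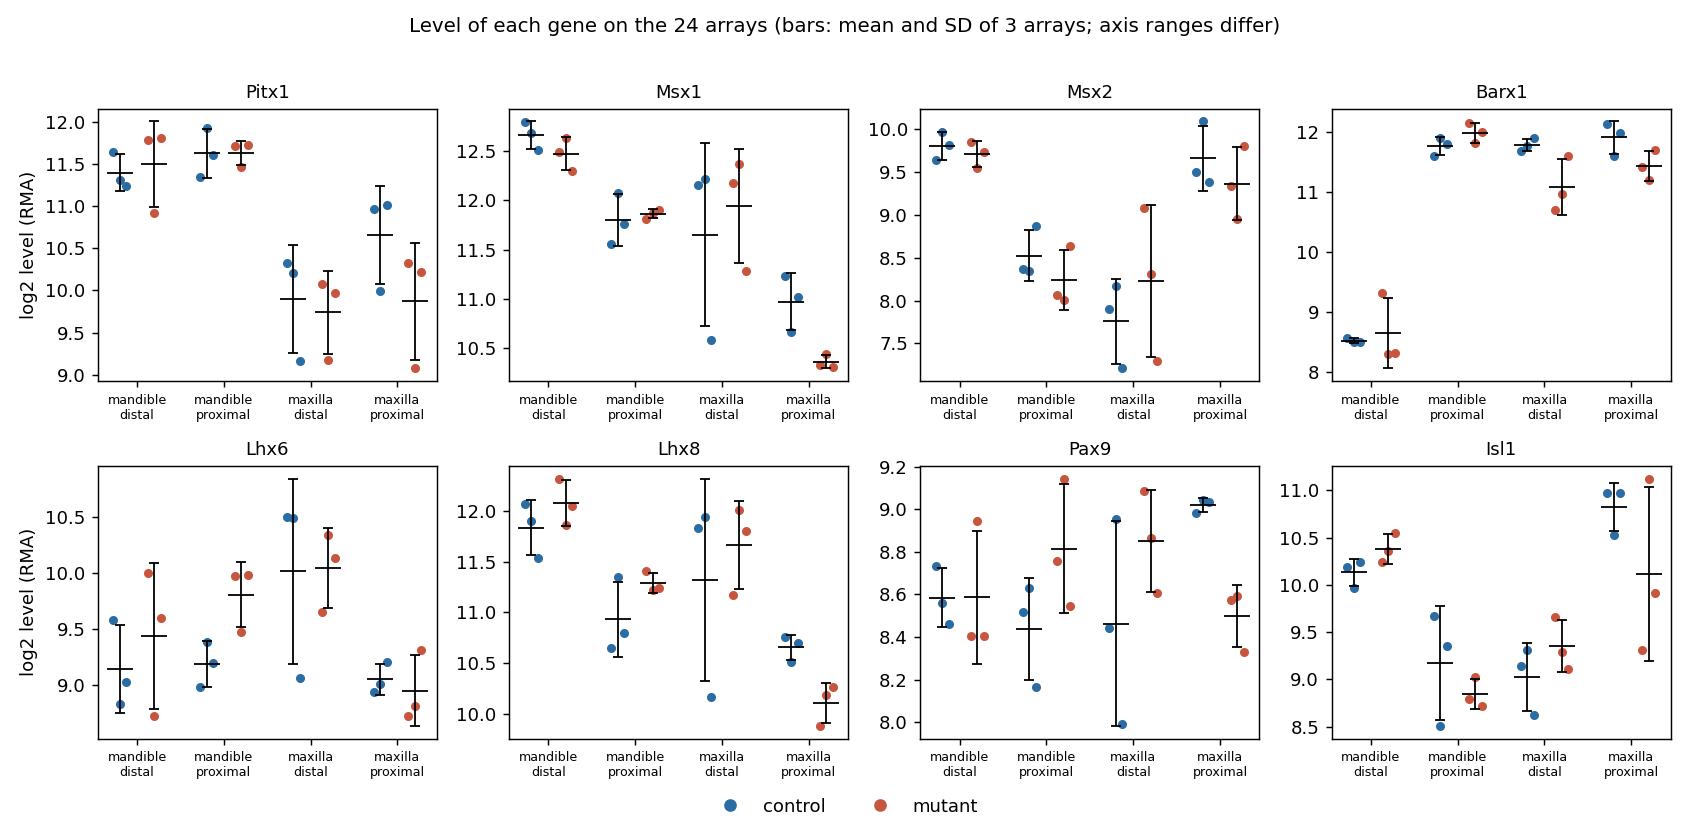
Log2 level (vertical axis, RMA) of each of the 8 genes on the 24 arrays, by jaw and end (horizontal axis) and genotype (blue control, red mutant); points are arrays and black bars the mean and SD of 3. Barx1 sits near 8.5 in the control distal mandible and near 11.8 in the control proximal mandible, while control and mutant points lie close together in most regions.

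Barx1, a homeobox gene that marks presumptive molar mesenchyme in the mouse, was low at the front of the mandible and high in the other 3 regions in both genotypes. In controls it read 8.58, 8.51 and 8.51 in the distal mandible and 11.61, 11.90 and 11.80 in the proximal mandible. The distal maxilla read 11.69, 11.77 and 11.90 and the proximal maxilla 12.14, 11.61 and 11.99. Every distal mandible array lies below every array of the other 3 control groups, and the groups of the maxilla overlap. Of all genes tested, 41.6% do not overlap between the ends of the control mandible and 35.3% between the distal control jaws. The control distal mandible was 9.42-fold below the proximal mandible (-3.24 ± 0.24, adjusted p = 4.91e-07) and 9.54-fold below the distal maxilla (-3.25 ± 0.24, adjusted p = 3.17e-07). These comparisons share the control distal mandible arrays. In mutants Barx1 read 9.33, 8.30 and 8.33 in the distal mandible and from 11.82 to 12.15 over the 3 arrays of the proximal mandible, a difference of -3.34 ± 0.24 (adjusted p = 1.42e-07). The mutant distal maxilla read 10.70, 10.97 and 11.60, above the distal mandible by 2.44 (adjusted p = 5.94e-06 for the -2.44 of mandible minus maxilla). All 4 of these calls held in each of the alternative analyses. Skeletal muscle markers moved the same way on the same arrays: 9 of 9 tested were lower in the control distal mandible than in the proximal mandible (median -2.22) and than in the distal maxilla (median -2.26). The mean level of that list ranged from 7.97 to 9.25 over the control distal mandible arrays and from 11.04 to 11.60 over the proximal ones, and its part in the Barx1 result was not tested.

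Msx2, a target of bone morphogenetic protein signalling in mesenchyme and epithelium, and Isl1, a LIM-homeobox gene known from incisor epithelium in the mouse and from sensory and motor neurons, shared a crossed pattern: high at the front of the mandible and at the back of the maxilla. Msx2 read 9.64, 9.96 and 9.81 in the control distal mandible and 8.36, 8.34 and 8.86 in the proximal mandible. It read 7.90, 8.17 and 7.21 in the control distal maxilla and 9.50, 10.09 and 9.38 in the proximal maxilla. No array of either high region overlaps an array of either low region. Isl1 read 10.19, 9.97 and 10.24 in the control distal mandible and 9.67, 8.51 and 9.35 in the proximal mandible. It read 9.14, 9.31 and 8.62 in the control distal maxilla and 10.97, 10.53 and 10.97 in the proximal maxilla. For Isl1, too, every array of the high regions lies above those of the low regions. Taken 1 comparison at a time, 25.6% to 41.6% of all genes do not overlap between the control jaws or ends. Over the 8 group means the levels of Msx2 and Isl1 had a Pearson correlation of 0.92, and over the 24 arrays 0.74, as a description of arrays that share sets and tissue pieces.

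Measured by end, Msx2 rose at the front of the control mandible by 1.28 ± 0.34 (adjusted p = 0.0164) and fell at the front of the control maxilla by 1.90 ± 0.34 (adjusted p = 0.00189). Isl1 fell at the front of the control maxilla by 1.80 ± 0.34 (adjusted p = 0.00247), and its difference in the control mandible was 0.96 ± 0.34 (adjusted p = 0.0693; it passed at 0.0273 once sets were a random block). Measured by jaw, Msx2 was 4.12-fold higher in the mandible at the distal end (2.04 ± 0.34, adjusted p = 0.000563), and Isl1 was 2.16-fold higher there (1.11 ± 0.34, adjusted p = 0.0441) and 3.13-fold lower at the proximal end (-1.65 ± 0.34, adjusted p = 0.0106). For Msx2 the proximal difference was -1.13 ± 0.34 (adjusted p = 0.104), which passed in 4 alternatives (adjusted p = 0.0283 to 0.0454). The Isl1 call at the distal end is close to the threshold. Its adjusted p was 0.0911 with the mean of all probe sets, 0.052 with no filter on dim genes and 0.229 without control distal maxilla replicate 3. It was 0.185, 0.0798 and 0.512 without control set 1, 2 or 3 and 0.0825 without mutant set 3. The proximal Isl1 call was lost without any 1 control set (adjusted p = 0.0869, 0.111 and 0.18 without sets 1, 2 and 3). In the control mandible the Msx2 call was likewise lost without any 1 control set (adjusted p = 0.15, 0.173 and 0.0543), and in the maxilla the Isl1 call was lost without control set 1 (0.0578) or 3 (0.103).

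The difference between the jaws in the distal minus proximal contrast was tested directly. In controls 3 of the 8 genes passed, against 2.73% of all genes tested: Msx2 with 3.18 ± 0.49 (adjusted p = 0.00282), Isl1 with 2.75 ± 0.48 (adjusted p = 0.00435) and Barx1 with -3.11 ± 0.33 (adjusted p = 0.000198). In mutants the same 3 genes passed, against 1.32% of all genes, with 2.60 ± 0.49 for Msx2 (adjusted p = 0.00886), 2.30 ± 0.48 for Isl1 (adjusted p = 0.0178) and -2.99 ± 0.33 for Barx1 (adjusted p = 0.000246). The mutant contrast was added after the data were seen. Its maxilla part, distal minus proximal, was -1.13 for Msx2 and -0.76 for Isl1, and neither passed with all arrays. That of Msx2 passed with the set as a random block (adjusted p = 0.0262) and without mutant set 1 (0.0269). The other 5 genes differed between the jaws by -1.01 to 0.70 in controls and by -1.46 to 0.00 in mutants. In controls the Isl1 and Msx2 values dropped below the threshold without control set 1 (adjusted p = 0.111 and 0.0999), and that of Isl1 also without set 3 (0.129). In mutants both were lost with only the groups compared in the fit (adjusted p = 0.107 and 0.0798), without mutant set 2 (0.0828 and 0.0586) and without mutant set 3 (0.286 and 0.0966), and that of Isl1 also without control set 1 (0.0506).

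**Figure D2:**
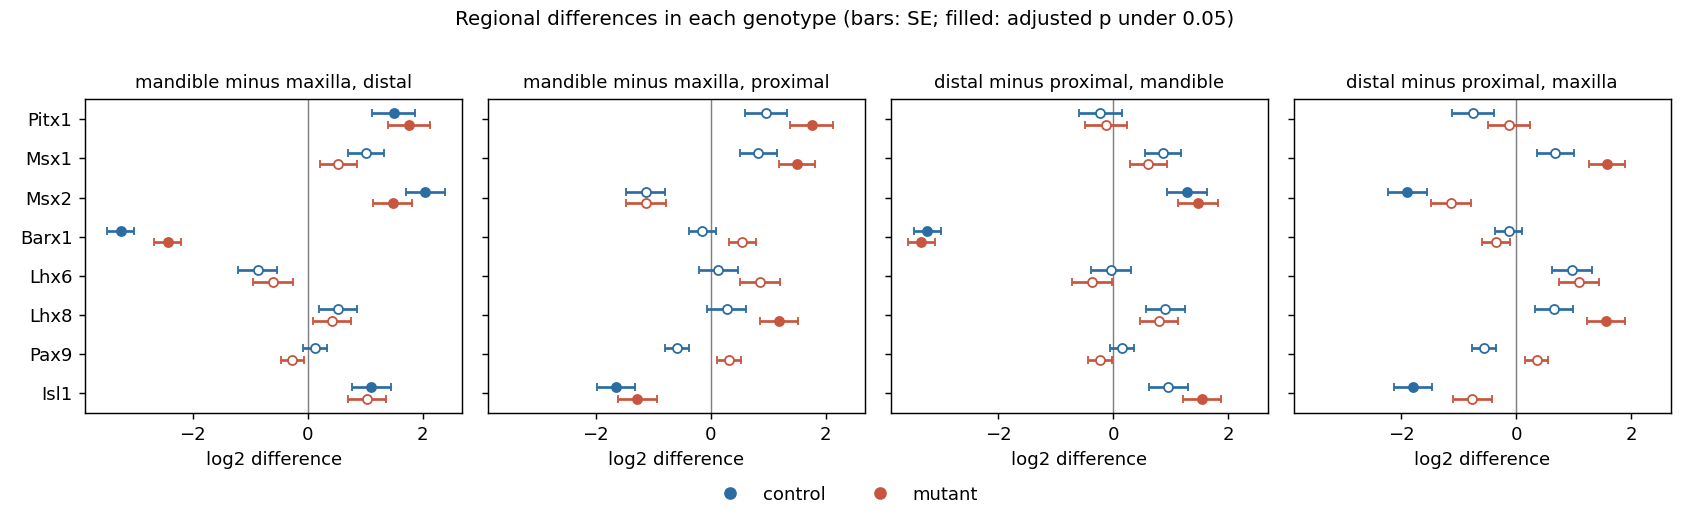
Log2 difference (horizontal axis) of each gene in the 4 regional comparisons, for controls (blue) and mutants (red); bars are SE and filled points passed an adjusted p of 0.05. Barx1 stands at -3.25 and -3.24 in the controls in the 2 comparisons that use the distal mandible, and Msx2 and Isl1 change sign between the distal and the proximal panel.

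Neuronal and cartilage markers followed part of the Isl1 and Msx2 pattern. Of 9 neuronal markers tested, with Isl1 itself left out, 6 were lower in the control mandible than in the maxilla at the proximal end (median -2.04) and 7 were lower at the distal than at the proximal end of the control maxilla (median -2.40). Their mean level ranged from 10.10 to 10.57 over the control proximal maxilla arrays, against 7.78 to 8.20 over the other control arrays. The front of the control mandible, where Isl1 was also high, had neuronal marker means of 7.80 to 8.09. Of 8 cartilage markers, 7 were higher in the control distal mandible than in the distal maxilla (median 3.10) and 7 were lower at the distal than at the proximal end of the control maxilla (median -3.11). Cartilage means were 7.62 to 8.0 in the control distal maxilla, where Msx2 was lowest, and 9.49 to 11.76 in the other 3 control regions. Epithelial markers were higher at the front than at the back of the control mandible, as Isl1 and Msx2 were (5 of 10, median 0.80), and also at the front of the control maxilla (8 of 10, median 1.47), where Isl1 and Msx2 were lower. Whether these tissues contribute to the Isl1 and Msx2 levels was not tested.

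**Figure D3:**
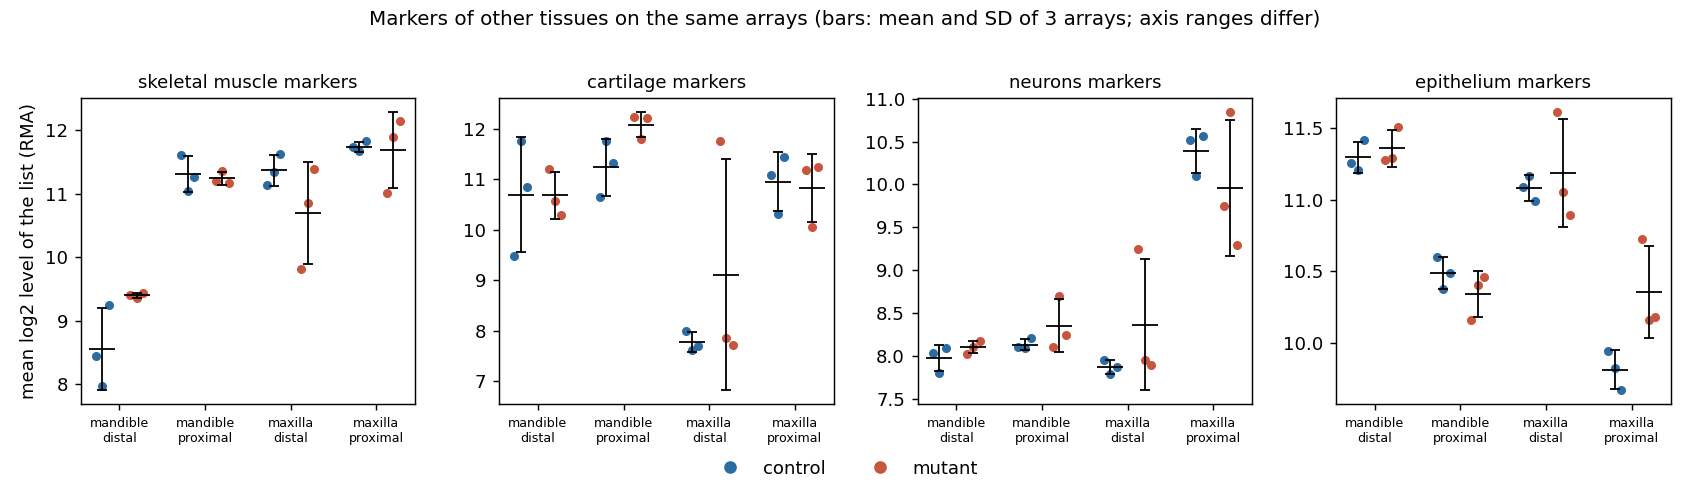
Mean log2 level (vertical axis, RMA) of 4 marker lists on each of the 24 arrays, by jaw, end (horizontal axis) and genotype; points are arrays and black bars the mean and SD of 3. Muscle markers are low in the distal mandible, neuronal markers are high in the proximal maxilla, and cartilage markers are low in the control distal maxilla.

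Msx1, a homeobox gene that mouse teeth need to pass the bud stage, and Lhx8, a LIM-homeobox gene of first-arch mesenchyme, both had higher means at the distal than at the proximal end of each jaw. Msx1 read 12.80, 12.68 and 12.51 in the control distal mandible and 11.56, 12.08 and 11.76 in the proximal mandible. It read 12.16, 12.22 and 10.58 in the control distal maxilla and 11.24, 10.66 and 11.02 in the proximal maxilla. The third distal maxilla array lies with the proximal ones, and the other 2 lie above all of them. Lhx8 read 12.07, 11.90 and 11.54 in the control distal mandible and 10.65, 11.35 and 10.80 in the proximal mandible. It read 11.84, 11.95 and 10.17 in the control distal maxilla and 10.75, 10.51 and 10.69 in the proximal maxilla. Again the third distal maxilla array is the low one. The levels of Msx1 and Lhx8 correlated with r = 0.90 over the 24 arrays. Epithelial markers were higher distally on the same arrays, 5 of 10 in the control mandible and 8 of 10 in the control maxilla, and 7 and 6 of 10 in mutants. Their mean level ranged from 11.21 to 11.41 in the control distal mandible against 10.38 to 10.60 proximally, and from 10.99 to 11.17 against 9.67 to 9.95 in the control maxilla. Their part in the Msx1 and Lhx8 levels was not tested.

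In the fit of independent arrays neither gene passed between the ends in controls, but in the mandible that call depends on the model. The mandible differences were 0.86 ± 0.32 for Msx1 (adjusted p = 0.0859) and 0.91 ± 0.33 for Lhx8 (adjusted p = 0.0823), and those of the maxilla were 0.68 ± 0.32 and 0.66 ± 0.33. Both mandible differences passed with the set as a random block (adjusted p = 0.0322 and 0.0296) and with only the groups compared (0.0101 and 0.0326). Lhx8 also passed there with the replicate block (0.0474) and without control set 3 (0.0289), Msx1 with the mean of all probe sets (0.0381), and both without control distal maxilla replicate 3 (0.00841 and 0.00525). Another probe set of Msx1 gave 1.14 ± 0.30 in the mandible (adjusted p = 0.0224). Without control distal maxilla replicate 3, left out after the data were seen, 5 genes passed in the control maxilla in place of 2: Msx1 rose by 1.22 (adjusted p = 0.0039), Lhx8 by 1.24 (0.00294) and Lhx6 by 1.44 (0.00784), beside Isl1 and Msx2. That array was picked because these genes read low on it. Leaving it out thus raises their distal maxilla means by choice, and no value without it is separate support. In the mutant maxilla Msx1 and Lhx8 both rose at the distal end with all arrays. Msx1 read 12.17, 12.37 and 11.28 there against 10.33, 10.44 and 10.31 proximally (1.58 ± 0.32, adjusted p = 0.00607), and Lhx8 read 11.18, 12.01 and 11.81 against 9.88, 10.18 and 10.26 (1.56 ± 0.33, adjusted p = 0.00881). No mutant array of the distal maxilla overlaps a proximal one for either gene. At the proximal end the mutant mandible was above the mutant maxilla by 1.5 ± 0.32 for Msx1 (adjusted p = 0.00735) and 1.19 ± 0.33 for Lhx8 (adjusted p = 0.04). The control differences there were 0.83 ± 0.32 and 0.28 ± 0.33, and the genotype by jaw difference at the proximal end, 0.68 ± 0.45 for Msx1 and 0.91 ± 0.47 for Lhx8, passed for neither (adjusted p = 1.00). The mutant calls were not firm: between the ends both were lost with only the groups compared (adjusted p = 0.168 and 0.112) and without mutant set 2 (0.101 and 0.115), that of Msx1 without set 1 (0.0717) and that of Lhx8 without set 3 (0.0851). Between the jaws Msx1 was lost without mutant set 1 (0.0695), and Lhx8 without mutant set 1, 2 or 3 (0.264, 0.122 and 0.144) or control set 1 (0.0664). Bone markers were also higher in the mutant proximal mandible than in the mutant proximal maxilla (5 of 5 tested, median 2.17). In controls 0 of 5 passed there (median 0.96). The part of bone in the Msx1 and Lhx8 levels was not tested.

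Lhx6, the close relative of Lhx8 in the same mesenchyme, read 10.50, 10.49 and 9.06 in the control distal maxilla and between 8.83 and 9.58 in the other 3 control regions. The first 2 of these arrays are the highest of the 12 controls. With all arrays its distal minus proximal difference in the control maxilla was 0.97 ± 0.34 (adjusted p = 0.119) and in the mutant maxilla 1.09 ± 0.34 (adjusted p = 0.0755). The mutant difference passed with the set as a random block (adjusted p = 0.0301) and without control distal maxilla replicate 3 alone (0.0254). The control difference passed without control set 3 (1.52, adjusted p = 0.0425), which holds that low array. Between the jaws at the distal end of controls the Lhx6 difference was -0.87 ± 0.34 (adjusted p = 0.151), and -1.35 without control distal maxilla replicate 3 (adjusted p = 0.0108). That array was picked by its low levels of these genes, so no value without it is separate support. A dimmer Lhx6 probe set, above the 40th percentile on 4 arrays only, gave 0.55 ± 0.32 in the control maxilla.

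Pitx1, a paired-like homeobox gene of mandibular mesenchyme and oral epithelium that is needed for normal mandible growth in the mouse, was higher in the mandible than in the maxilla. At the distal end of controls the mandible arrays read 11.65, 11.31 and 11.23 and the maxilla arrays 10.33, 10.21 and 9.17. At the proximal end the mandible arrays read 11.35, 11.92 and 11.60 and the maxilla arrays 10.97, 9.99 and 11.02. In both pairs every mandible array lies above every maxilla array. Of all genes tested, 35.3% do not overlap in the distal pair and 25.6% in the proximal pair. The distal difference was 1.49 ± 0.37 (2.82-fold, adjusted p = 0.0124), and the proximal one 0.97 ± 0.37 (adjusted p = 0.254). The distal call was lost without control set 1 (adjusted p = 0.0668), without control set 3 (0.19), and without control distal maxilla replicate 3 alone (1.13, adjusted p = 0.101). In mutants Pitx1 was higher in the mandible by 1.76 ± 0.37 at both ends (3.38-fold, adjusted p = 0.00747 distal and 0.00674 proximal). With only the groups compared in the fit these were 0.0993 and 0.0592, and without mutant set 3 the distal one was 0.115. Mutant replicate 2 was below both other mutant arrays in all 4 regions, by 0.88, 0.26, 0.85 and 1.2 in the mandible and then the maxilla, each distal piece first.

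Pax9, whose loss arrests mouse teeth at the bud stage, was the most even of the 8 genes by its brightest probe set, though not by another. Its control arrays ranged from 8.46 to 8.73 in the distal mandible, 8.17 to 8.63 in the proximal mandible, 7.99 to 8.95 in the distal maxilla and 8.98 to 9.04 in the proximal maxilla. The proximal maxilla lies above the other 3 regions on every array. Of all genes tested, 25.6% do not overlap between the control proximal jaws and 34.3% between the control maxilla ends. The Pax9 difference of the proximal maxilla from the proximal mandible was 0.58 in size (-0.58 ± 0.21 for mandible minus maxilla, adjusted p = 0.198) and from the distal maxilla -0.56 ± 0.21 (adjusted p = 0.138). With the replicate number as a block, which the pairing check allows within the control maxilla, the latter passed (adjusted p = 0.0316), and it passed with the set as a random block (0.0261). The difference between the proximal jaws passed with the set as a random block (0.0355), with the replicate block (0.0464) and with only the groups compared (0.049). The replicate numbers were not taken as pairs for the control proximal jaws, so the replicate block value carries no weight here. A dimmer Pax9 probe set called that difference with all arrays (-1.25 ± 0.28, adjusted p = 0.0285), and another gave -0.85 ± 0.28 (adjusted p = 0.203).

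Counted over the 8 genes in controls, 4 differed between the jaws at the distal end (3 higher and 1 lower in the mandible), against 9.21% of all genes tested, and 1 at the proximal end, against 2.61%. Between the ends 2 differed in the mandible (1 each way), against 13.3%, and 2 in the maxilla (both lower distally), against 6.06%. In mutants 3 differed between the jaws distally (4.92% of all genes) and 4 proximally (5.69%), and between the ends 3 in the mandible (15.9%) and 2 in the maxilla (5.15%). The third mutant mandible call is Isl1, which read 10.24, 10.36 and 10.55 distally and 8.79, 9.02 and 8.72 proximally (1.54 ± 0.34, adjusted p = 0.00313; 0.0689 without mutant set 3). Msx2 passed in mutants for the mandible ends (1.47 ± 0.34, adjusted p = 0.00524) and for the distal jaws (1.48 ± 0.34, adjusted p = 0.0149; 0.235 with only the groups compared, 0.0632 and 0.181 without mutant set 2 or 3). Isl1 also passed for the proximal jaws of mutants (-1.27 ± 0.34, adjusted p = 0.0286), but fell short in 6 alternatives, with adjusted p from 0.0506 to 0.271. With the replicate number as a block, 4 genes passed between the ends of the control mandible, Isl1 (adjusted p = 0.047) and Lhx8 (0.0474) beside Barx1 and Msx2, and Msx1 also passed between the control jaws distally (0.0365). Isl1, Msx1 and Pitx1 have a further tested probe set, and in 12 of 12 of their called values it had the same sign, passing in 8. Those where it fell short were all of Isl1. They were the control distal jaws (adjusted p = 0.232), control proximal jaws (0.0751), mutant proximal jaws (0.119) and the mutant difference between the jaws (0.104). Lhx6 and Pax9 also have further probe sets but no called value.

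The genotype comparison asks whether loss of the receptor from the neural crest alters these genes, and none of the 8 passed it. Averaged over the 4 regions, mutant minus control ran from -0.21 to 0.21 with SE of 0.10 to 0.18 (lowest adjusted p = 0.185), and 0 of 8 were called against 33.7% of all genes tested. Within regions 0 of 8 were called in the mandible (0.895% of all genes distally, 5.36% proximally) and in the maxilla (7.08% distally, 5.7% proximally), and at an unadjusted p under 0.05 0 passed at either end of the mandible, 1 in the distal and 2 in the proximal maxilla. The 95% intervals of the average changes were -0.45 to 0.04 for Barx1, -0.47 to 0.24 for Isl1, -0.15 to 0.57 for Lhx6 and -0.25 to 0.45 for Lhx8. They were -0.45 to 0.22 for Msx1, -0.41 to 0.31 for Msx2, -0.16 to 0.28 for Pax9 and -0.60 to 0.18 for Pitx1. These intervals take the 12 arrays of a genotype as independent, although arrays of a set share deviations (correlation 0.40). With the set as a random block the SE rose to 0.15 to 0.31, the 8 intervals together spanned -0.80 to 0.85, and 11.6% of all genes were called. With 1 mean value per set, 3 against 3, they spanned -0.74 to 0.54 and 0.578% of all genes were called. None of the 8 genes passed in either fit (lowest adjusted p = 0.565 and 0.281). The tests of whether the genotype effect differed between the jaws or the ends called 0 of 13850 genes with limma (480 and 430 at an unadjusted p under 0.05), and 0.0% of all genes is thus the background of these tests.

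**Figure D4:**
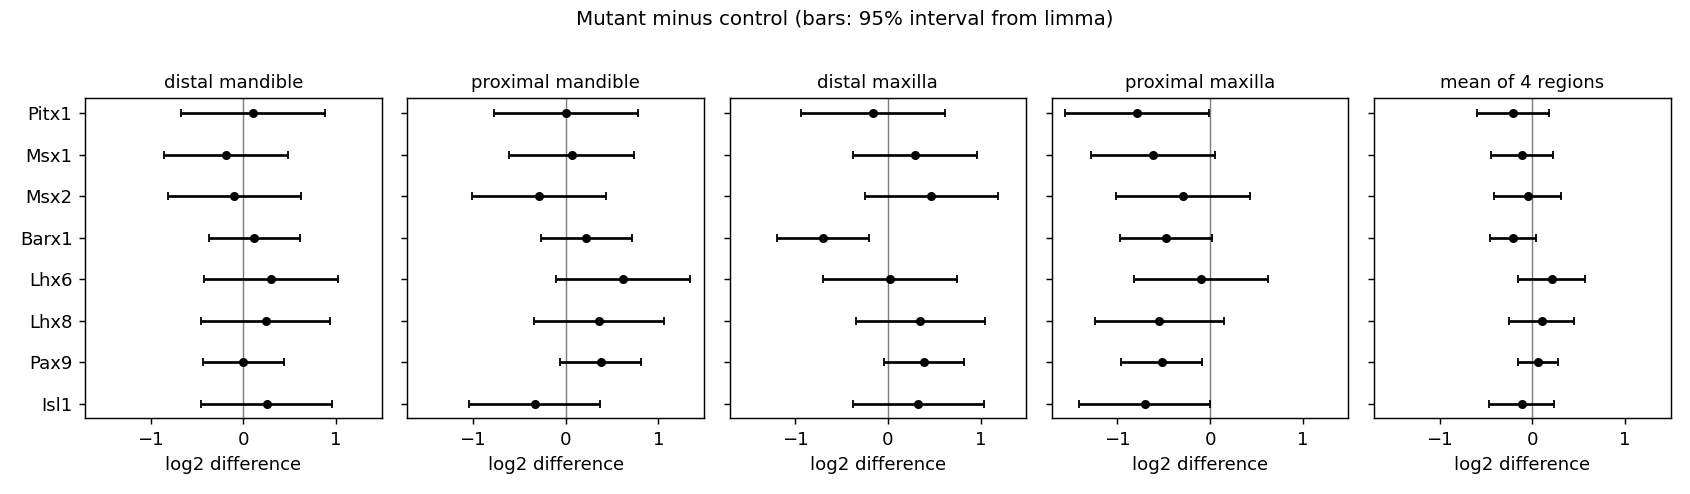
Mutant minus control log2 difference (horizontal axis) of each gene in the 4 regions and averaged over them; points are limma estimates and bars their 95% intervals. All 8 points lie below 0 in the proximal maxilla, from -0.79 to -0.10, and the averages lie within 0.21 of 0.

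The genotype differences within regions reached -0.79 in the maxilla and 0.62 in the mandible. Lhx6 read 8.98, 9.38 and 9.19 in the control proximal mandible and 9.97, 9.47 and 9.98 in the mutant one (0.62 ± 0.34, adjusted p = 0.344), the 1 gene of the 8 without overlap there, where 30.0% of all genes do not overlap. A dimmer Lhx6 probe set gave 0.05 ± 0.32, while a dimmer Pax9 probe set read 1.03 ± 0.28 higher in mutants in that region (adjusted p = 0.0559), against 0.38 ± 0.21 by the brightest. In the distal maxilla Barx1 read 11.69, 11.77 and 11.90 in controls and 10.70, 10.97 and 11.60 in mutants, which do not overlap (-0.70 ± 0.24, adjusted p = 0.0805). It was the 1 gene of the 8 without overlap in that region, where 23.9% of all genes do not overlap. Without mutant set 3 its difference was -0.95 (adjusted p = 0.0366), and without mutant set 1 it was -0.50 (adjusted p = 0.127). The lowest of these Barx1 values is mutant distal maxilla replicate 1, which stood apart from its group: its cartilage marker mean was 11.75 against 7.86 and 7.72 in the other 2 arrays, its neuronal mean 9.24 against 7.95 and 7.90, and its muscle mean 9.82 against 10.86 and 11.39. Over the 3 arrays cartilage markers were higher in mutants there by a median of 1.36, neuronal markers by 0.62 and muscle markers differed by -0.55, with 0 called in each list, and their part was not tested. In the proximal maxilla all 8 differences were negative, with a median of -0.54 beside 0.02 over all genes tested. There Pax9 read 8.98, 9.04 and 9.04 in controls and 8.57, 8.59 and 8.33 in mutants (-0.52 ± 0.21, adjusted p = 0.148). Msx1 (-0.61 ± 0.32, adjusted p = 0.282) and Lhx8 (-0.55 ± 0.33, adjusted p = 0.365) likewise did not overlap between genotypes, so that 3 of 8 were apart where 24.9% of all genes were. Pitx1 had the largest difference (-0.79 ± 0.37, adjusted p = 0.225), with controls at 10.97, 9.99 and 11.02 and mutants at 10.33, 9.08 and 10.22, which overlap. Isl1 read 9.31, 11.13 and 9.91 in mutants against 10.97, 10.53 and 10.97 in controls (-0.70 ± 0.34, adjusted p = 0.233), and without mutant set 2 the difference was -1.21 (adjusted p = 0.014). On the same arrays epithelial markers were higher in mutants by a median of 0.58 (1 of 10 passed) and neuronal markers differed by a median of -0.14 (0 of 9 passed). The neuronal mean was 9.75, 10.84 and 9.30 on mutant replicates 1, 2 and 3, against 10.10 to 10.57 in controls. Replicate 2, left out with mutant set 2, was thus the highest mutant array there for both Isl1 and neuronal markers. The part of both marker lists was not tested.

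Leaving out mutant sets 1 and 3, which had the raised Gapdh difference, keeps a single mutant set of 4 arrays, assumed to vary like the controls. Barx1 then passed in the average (-0.43, adjusted p = 0.00251), the distal maxilla (-0.82, adjusted p = 0.0128) and the proximal maxilla (-0.71, adjusted p = 0.0226). Pitx1 passed in the average (-0.74, adjusted p = 0.0261) and in the proximal maxilla (-1.58, adjusted p = 0.0485). Mutant set 2, the one kept, is also the set with the lowest mutant Pitx1 in every region. Its Barx1 lies below the mutant group mean in every region (-0.35 and -0.175 in the mandible, -0.12 and -0.24 in the maxilla, distal first). It is the lowest mutant set for Barx1 except in the distal maxilla, where set 1 is. Set 2 also read high for both Xist and Y-linked genes, so these values rest on 1 set that is itself low for Barx1 and Pitx1. Of 15 calls between regions of mutants, 4 passed without sets 1 and 3: the 3 of Barx1, and Isl1 for the proximal jaws (-2.10, adjusted p = 0.0482). Of the 11 lost, Pitx1 had adjusted p of 0.245 for the distal and 0.0648 for the proximal jaws, and Msx2 0.0612 for the mandible ends, 0.282 for the distal jaws and 0.24 for the difference between the jaws. Isl1 had 0.115 for the mandible ends and 0.0831 for the difference between the jaws. Between the maxilla ends Msx1 had 0.138 and Lhx8 0.192, and between the proximal jaws 0.305 and 0.508. The directions were the same in all 15. Without mutant set 1 alone the average of Barx1 was -0.26 (adjusted p = 0.042).

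**Figure D5:**
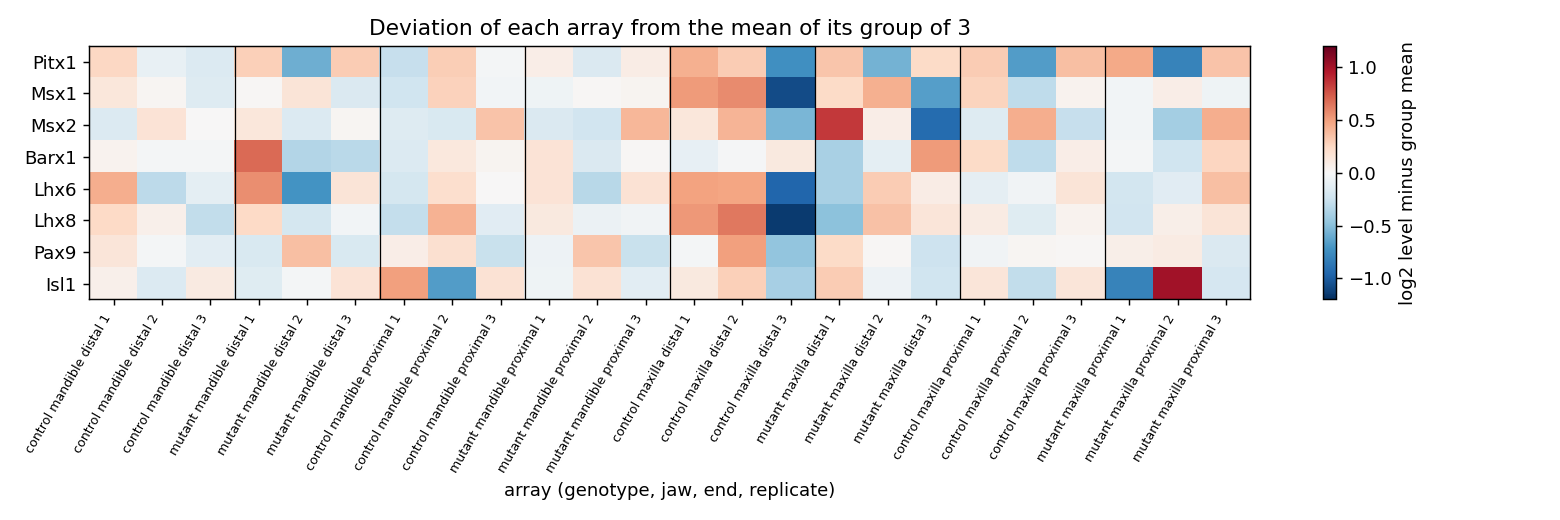
Log2 level of each gene (rows) on each array (columns, in groups of 3) minus the mean of its group, with blue below and red above it. Control distal maxilla replicate 3 is blue for 7 of the 8 genes, and Pitx1 is blue on all 4 arrays of mutant replicate 2.

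Around these genes, part of a list of signals known from tooth epithelium was higher at the distal ends of control jaws. Whole tissue pieces do not show whether such a signal came from epithelium or mesenchyme. Of 17 tested, 11 rose and 0 fell distally in the mandible (median 0.84), where 13.3% of all genes were called, and 9 rose and 0 fell in the maxilla (median 0.57), where 6.06% were. The other 6 and 8 did not pass. The counts of these lists that follow stand beside the same 2 shares between the ends, and beside 9.21% between the distal and 2.61% between the proximal control jaws. In the mandible Shh, the hedgehog ligand of dental epithelium, rose by 2.86 ± 0.28 (adjusted p = 4.25e-06), and Bmp4, a bone morphogenetic protein ligand, rose by 1.36 ± 0.20 (adjusted p = 9.24e-05). In the maxilla Wnt6 rose by 1.53 ± 0.21 (adjusted p = 0.000158). Of 10 epithelial markers 5 rose distally in mandible tissue (median 0.80) and 8 in maxilla tissue (median 1.47), and their part in these signals was not tested. Between the jaws 3 signals rose and 1 fell in the distal mandible, Shh by 2.06 ± 0.28 and Bmp4 by 1.60 ± 0.20 among those that rose, and 1 rose and 1 fell proximally.

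Among 14 genes of dental mesenchyme signalling, 6 rose and 1 fell at the front of the control mandible. Wnt5a rose by 1.26 ± 0.13, Lef1, a WNT-responsive transcription factor, by 1.15 ± 0.16 and Fgf3 by 1.07 ± 0.14, while the WNT-binding protein Sfrp2 fell by 1.23 ± 0.11. In the maxilla 2 rose and 2 fell, between the jaws 6 rose and 2 fell in the distal mandible, and 0 of 14 passed proximally. Of 13 readouts of bone morphogenetic protein and fibroblast growth factor signalling, 5 were higher and 2 lower in the distal mandible than in the distal maxilla, with Bambi, a pseudoreceptor, up by 1.94 ± 0.19 and the inhibitory Smad6 by 0.81 ± 0.12. Within the control mandible 3 rose and 3 fell distally, and none of the 13 passed in the maxilla or between the proximal jaws.

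Neighbouring jaw patterning genes were split. Of 17 tested, 5 rose and 5 fell at the front of the control mandible, with Alx1 up by 4.48 ± 0.57 and Meox2 down (-2.34 ± 0.29). In the distal jaws 7 were higher and 3 lower in the mandible, in the maxilla 0 rose and 2 fell distally (Dlx5 and Dlx6), and proximally Hand2 alone differed. Of 13 family relatives of the 8 genes, 2 rose and 2 fell in the control mandible, among them Pax3 (2.39 ± 0.45) and Pax7 (-2.57 ± 0.42). In the maxilla 2 rose and 1 fell, and between the jaws 2 rose and 4 fell distally and 2 rose and 1 fell proximally. Of 9 cofactors that bind LIM or homeodomain proteins, Lmo1, a LIM-only protein, rose distally in both jaws (1.55 ± 0.18 mandible, 1.66 ± 0.18 maxilla), and Pbx3, a partner of homeodomain proteins, fell in both (-0.54 ± 0.12 and -0.52 ± 0.12). Between the jaws 2 cofactors were higher distally and 1 proximally in the mandible, and 0 lower.

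In the genotype average some genes of these lists passed. Of the epithelial signals 5 were higher and 1 lower in mutants (Eda by 0.32 ± 0.07 and Bmp7 by 0.23 ± 0.08), of the mesenchymal list 2 were higher and 1 lower (Tnc fell by 0.40 ± 0.10), and of the signalling readouts 5 were higher and 2 lower (Spry4 by 0.30 ± 0.05 higher, Id1 by -0.38 ± 0.08). Of the patterning genes Alx1 rose by 0.77 ± 0.28 and Meox2 fell by 0.61 ± 0.14. Of the cofactors Ldb2, a partner of LIM-homeobox proteins, rose by 0.44 ± 0.07 and Lmo2 fell by 0.35 ± 0.06, and 0 of 13 family relatives passed. Each share is read beside the 33.7% of all genes called, or 0.578% with 1 value per set.

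The genes most like each member in level were found by Pearson correlation over the 24 arrays, which share sets and tissue pieces. Barx1 was most like Smoc2 (0.96), Nell1 (0.96) and Sfrp2 (0.95). Lhx8 was most like AI606473 (0.97), a transcript that neighbours it on the chromosome in the RefSeq table, and then Nfatc2 (0.93) and Far2 (0.89). Msx1 was most like Sostdc1 (0.91), an antagonist of bone morphogenetic protein and WNT signals in the tooth field, then Sh3d19 (0.89) and Fosl2 (0.89). Pitx1 was most like Gpc3 (0.90), P4ha2 (0.88) and the homeobox gene Dlx3 (0.87), and Isl1 like Fkbp1b (0.87), Syt13 (0.85) and Kcnmb2 (0.84). Lower values were found for Msx2, with Prrx2 (0.82), Adamtsl3 (0.81) and Ret (0.79), for Lhx6, with Galnt13 (0.83), Kcns2 (0.82) and Cntn6 (0.81), and for Pax9, with Ro60 (0.62), Elovl4 (0.60) and Nwd2 (0.59).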

How the data were processed

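Jaw tissue of 24 mouse samples was measured on Affymetrix arrays. The authors deposited log2 values, for which the submitters' processing notes name RMA. Its version, the arrays normalized together and any pooling of embryos were not given in the sources used here. The labels' protocols give 5 µg of total RNA per sample. Of 45101 probe sets, 34958 name 1 symbol, 932 several and 9211 none. Each gene was read by its 1-symbol probe set with the highest mean, and genes above the 40th percentile of the array on at least 3 arrays were tested, which left 13850 of 18194. One mean per group was fitted over the 24 arrays in limma 3.58.1 (R 4.3.3), leaving 16 residual degrees of freedom. A call is a Benjamini-Hochberg adjusted p under 0.05 over all genes tested, and errors are SE unless marked SD. The steps were tested on simulated data in which all arrays were independent. That test cannot show how the calls behave when arrays of a set share deviations, as they do here. The number of arrays limits the precision.

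The 8 genes and the gene lists were chosen with earlier results of these data known. All 8 are named in every comparison. For each, the 3 genes of highest correlation are named, and from each list counts with up to 4 called genes. Alternatives changed the probe set summary, the filter, the normalization, the variance model and the arrays included. The set was also taken as a random block (statmod 1.5.0, correlation 0.40). The replicate numbers were checked as pairs from the values: deviations from group means of same-numbered arrays correlated above 0.1 in 34 of 36 pairs within a genotype, including every pair between the ends of a jaw and between the distal jaws, but ranged from -0.31 to 0.40 across genotypes. They were therefore taken as pairs within a genotype, other than for the control proximal jaws, and not across genotypes.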

Additional observations from a re-analysis of the deposited data

Results flagged for a closer look

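The distal minus proximal difference of 3 genes was unlike in the 2 jaws, by a test of the difference itself. In controls the mandible minus maxilla value of this contrast was -3.11 for Barx1, 2.75 for Isl1 and 3.18 for Msx2. In mutants it was -2.99 for Barx1, 2.30 for Isl1 and 2.60 for Msx2. For Msx2 and Isl1 the contrast changed sign between the jaws, but not every part of it passed. In the mutant maxilla neither gene did (-1.13 for Msx2 and -0.76 for Isl1), and in the control mandible Isl1 did not (0.96). For Barx1 the contrast passed the test in the mandible and not in the maxilla. Skeletal muscle markers had a median value of -2.06 for the same contrast in controls (7 of 9 lower), neuronal markers 2.83 (5 of 9 higher) and cartilage markers 2.75 (1 of 8 higher), and their part was not tested.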

How the results depend on the processing

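All 27 called values of the 8 genes kept their direction in the 17 settings tried, and 8 passed the threshold in every one. Of 109 values not called, 37 changed sign and 25 passed in some setting, 7 of them among 40 genotype values. Counts of the 8 genes called moved as follows. Leaving out 1 set at a time gave 0 to 1 for the average, distal maxilla and proximal maxilla genotype effects (0 with all arrays). In controls it gave 2 to 4 for the distal jaws (4), 0 to 2 for the proximal jaws (1), 1 to 3 for the ends of the mandible (2), 1 to 4 for the ends of the maxilla (2) and 1 to 3 for the difference between the jaws (3). In mutants it gave 1 to 3 for the distal jaws (3), 2 to 4 for the proximal jaws (4), 2 to 4 for the ends of the mandible (3), 0 to 2 for the ends of the maxilla (2) and 1 to 3 for the difference between the jaws (3). With only the groups compared the counts were 3 for the control proximal jaws, 4 for the control mandible ends, 1 for the mutant distal jaws, 2 for the mutant proximal jaws, 5 for the mutant mandible ends, 0 for the mutant maxilla ends and 1 for the mutant difference between the jaws. With the replicate number as a block they were 1 for the genotype effect in the proximal maxilla (Pax9, adjusted p = 0.0364), 2 for the control proximal jaws and 4 for the control mandible ends. The numbers were not taken as pairs across genotypes or for the control proximal jaws. The block changed no count beyond 1.5 times elsewhere. With the set as a random block they were 3 for the control proximal jaws, 5 for the control mandible ends and 4 for the mutant maxilla ends. Without mutant sets 1 and 3 they were 2, 1 and 2 for the average, distal maxilla and proximal maxilla genotype effects, 2 for the control proximal jaws, 1 each for the mutant distal jaws, proximal jaws, mandible ends and difference between the jaws, and 0 for the mutant maxilla ends. Without control distal maxilla replicate 3 alone, chosen because these genes read low on it, they were 2 for the control proximal jaws, 4 for the control mandible ends and 5 for the control maxilla ends. The cause of these moves was not tested. No share of all genes called under the same setting stands beside these counts, and that share moves too. For the average genotype effect it was 33.7% in the main fit and 11.6% once sets were fitted as a random effect. A moved count is therefore not, by itself, a change particular to the 8 genes. Of 1280 recounts of the gene lists, 990 stayed within 1.5 times.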
